A study of Drosophila melanogaster with 12 samples.

Results

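Cytosolic chaperones and the partners of Hsp70 were followed in heads of Drosophila in which ND-75, a subunit of mitochondrial complex I, was knocked down in neurons. The genes were taken by name, and all 7 were found among the 17589 features counted. They were the constitutive Hsp70 genes Hsc70-4 and Hsc70-1, the J-domain gene DnaJ-1, the BAG-domain gene stv (starvin), the Hsp110 gene Hsc70Cb, the Hsp90 gene Hsp83 and the heat shock factor gene Hsf. All 7 passed the filter on low counts in every comparison.

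Hsp70 chaperones bind unfolded stretches of other proteins in cycles driven by ATP. J-domain proteins deliver clients and start ATP hydrolysis, nucleotide exchange factors of the BAG and Hsp110 families reopen the chaperone, and Hsp90 acts on clients handed over from Hsp70. In flies Hsf binds heat shock elements in the promoters of many of these genes when unfolded protein accumulates, while the Hsc70 genes are transcribed without stress.

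The study compared RNA from heads at 2 days of age in 3 genotypes with 4 libraries each. ND-75 KDstrong flies were labelled nSybGal4/ND-75 strong RNAi (line HMS00853), ND-75 KDweak flies nSybGal4/ND-75 weak RNAi (line KK108222 per the methods), and control flies nSybGal4/w[1118]. All 3 genotypes carried nSybGal4, a driver active in neurons, which per the study's methods was combined with a temperature-sensitive Gal80 repressor expressed throughout the fly. The controls expressed no hairpin RNA, so knockdown and expression of an RNAi construct cannot be told apart. Per the study the strong line encodes a short hairpin and the weak line a long one, and they come from different stock collections. Between KDstrong and KDweak, strength of knockdown, hairpin type and stock cannot be told apart. Each library came from 20 pooled heads, with 10 of each sex. The pools were described as biological replicates with no word on separate crosses, so p-values measure the spread between pools. Heads also hold glia, muscle, fat body and epidermis, in which the driver is not active, and in such bulk RNA fewer cells of a type and less RNA per cell cannot be told apart.

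Total counts were 22034203 to 34169998 per library in KDstrong, 19309456 to 32441604 in KDweak and 20072771 to 30321577 in control. ND-75 itself was at 547.9, 537.7, 453.7 and 638.7 CPM (read counts scaled to the size of the library) in the 4 KDstrong libraries, 641.3, 665.3, 616.8 and 564.7 CPM in KDweak, and 715.9, 852.7, 1380 and 832.3 CPM in control. All 8 knockdown libraries lay below all 4 control libraries, but the difference did not pass in edgeR's quasi-likelihood test (log2 fold change −0.79 and adjusted p = 0.117 for KDstrong, −0.59 and 0.116 for KDweak). KDstrong replicate 4 and control replicate 3 stood apart. They had the fewest detected features (13729 and 12966, against 13834 to 14967 in the others) and the lowest summed level of 12 neuronal markers (2399 and 2319 CPM, against 3284 to 4278 CPM in the others). KDweak replicate 2 differed from its group in 12 muscle markers, which summed to 11750 CPM there and 6670 to 7281 CPM in the other KDweak libraries. Control libraries had 11090 to 15160 CPM of these markers and KDstrong libraries 9028 to 14200 CPM. In KDweak against control 0 of the 11 muscle markers tested had a positive log2 fold change. Of these, edgeR called 2 lower (Mlc1 and Mlc2), where 3.98% of all features were called lower. In KDstrong against KDweak it called 4 higher, where 8.18% of all features were called higher. Markers of the fat body (9 genes) summed to 27930 to 68360 CPM in KDstrong, 50830 to 72090 CPM in KDweak and 34610 to 41550 CPM in control. Most of this sum was Yp1, Yp2 and Yp3, with control means of 5905, 11860 and 17510 CPM. In KDweak against control edgeR called 4 of the 9 higher (Lsp2, Yp1, Yp2 and to) and 3 lower (Fbp1, Fbp2 and Lsp1gamma). These 3 had control means of 7.343, 3.334 and 1.634 CPM and passed the filter only through control. The sum therefore does not stand for all 9 markers. It was lowest within KDweak in replicate 2, at 50830 CPM beside 68030 to 72090 CPM in the others. Photoreceptor markers (12 genes) summed to 36110 to 44810 CPM in KDstrong, 47890 to 53540 CPM in KDweak and 41960 to 55170 CPM in control. A large part of this sum was ninaE, with means of 16480, 23620 and 18360 CPM in the same order. In KDweak against control 5 of the 12 had a positive log2 fold change. Markers of hemocytes (8 genes) summed to 586.8 to 676.2 CPM in KDstrong, 832.2 to 922.4 CPM in KDweak and 633.1 to 772.2 CPM in control, so that the sum in KDweak lay above all other libraries. In KDweak against control 5 of the 8 had a positive log2 fold change, and NimC1, crq and He a negative one. Of the 8, edgeR called 2 higher (PPO1 and PPO2), where 2.56% of all features were called higher. Glial markers (8 genes) summed to 3065 to 3753 CPM in KDstrong, and to 3270 to 3516 CPM in KDweak, wholly below the 3552 to 3737 CPM in control. A large part of this sum was Gs2, with means of 1755 CPM in KDweak and 1855 CPM in control. In KDweak against control edgeR called 0 of the 8, 0 lay wholly lower, and 1 had a positive log2 fold change. The part of these differences in the chaperone levels was not tested, and no gene of any of these lists was at 0 in all 4 libraries of a genotype.

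The genes lie on 3 chromosome arms of release 6 of the Drosophila genome, and the coordinates in the files were those of the Ensembl annotation of that release. Hsp83 is at 3L:3192969-3197059 on the plus strand, DnaJ-1 at 3L:5750029-5752189 on the minus strand, and stv at 3L:13477541-13483515 on the plus strand. Hsc70-1 (3L:13974061-13977761) and Hsc70Cb (3L:14037019-14043686) are both on the plus strand. Hsc70-4 is at 3R:15242687-15246614 on the plus strand, and Hsf at 2R:18130303-18134634 on the minus strand. Values are for whole genes, with the reads of 2 to 8 annotated transcripts summed. Hsp83 overlaps CG14966 on the other strand by 15 bases, and strand was not recorded by the library kit.

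Per kilobase of exon, Hsc70-4 was the most abundant of the 7 in each genotype, with 732.1 ± 189.7 CPM per kb in KDstrong, 785.6 ± 93.9 in KDweak and 722.8 ± 183.8 in control (SD, n = 4 each). Hsp83 came next on the same scale, with 198.1 ± 134.3 CPM per kb in KDstrong, 295.4 ± 312.4 in KDweak and 100.7 ± 39.1 in control. In control heads DnaJ-1, stv and Hsc70Cb lay together at 25.1 ± 0.629, 30.6 ± 4.77 and 29.9 ± 2.79 CPM per kb, and stv and Hsc70Cb did not differ beyond their spread. Hsf followed with 21.1 ± 1.30 and Hsc70-1 with 10.7 ± 2.54 CPM per kb. In KDstrong heads DnaJ-1 stood next after Hsp83, at 65.5 ± 19.3 CPM per kb, with stv at 57.5 ± 14.1 within its spread, followed by Hsc70Cb (44.1 ± 5.62), Hsf (20.3 ± 1.04) and Hsc70-1 (8.45 ± 0.787). In KDweak heads stv (47.2 ± 18.6), Hsc70Cb (36.6 ± 7.37), DnaJ-1 (33.2 ± 15.7) and Hsf (27.4 ± 7.003 CPM per kb) followed in that order with overlapping spreads, and Hsc70-1 was lowest at 10.4 ± 1.46.

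**Figure D1:**
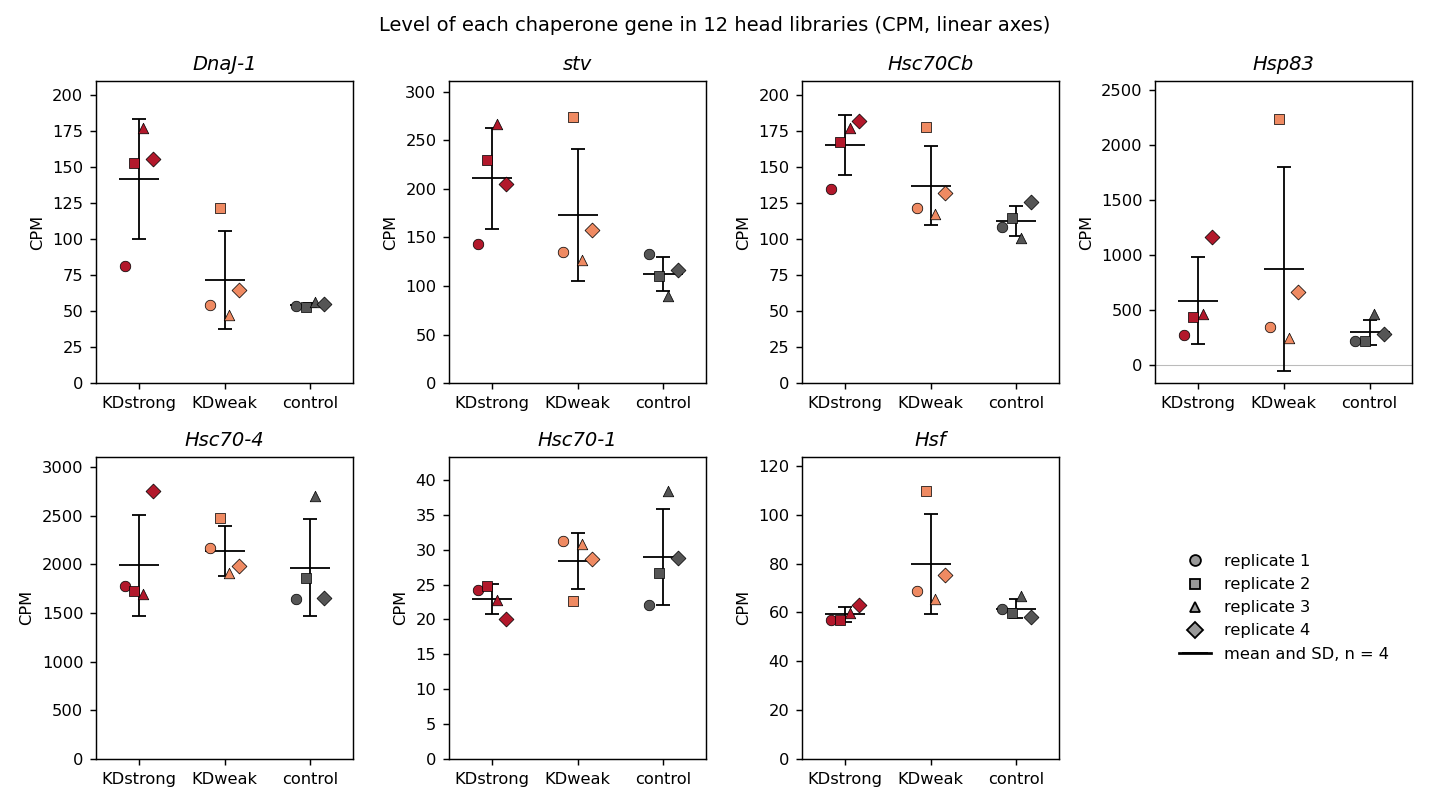
Level of each of the 7 chaperone genes in the 12 head libraries, in CPM on linear axes, with a marker for each replicate and bars for the mean and SD (n = 4). DnaJ-1, stv and Hsc70Cb are higher in every KDstrong library than in any control library, and KDweak replicate 2 is the highest KDweak library for all but Hsc70-1.

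DnaJ-1, which encodes the main inducible Hsp40 of the fly cytosol, was the clearest of the 7 in strong knockdown. It was at 81.4, 152.5, 177.3 and 155.2 CPM in KDstrong heads, at 54.1, 121.6, 47.1 and 64.4 CPM in KDweak heads, and at 53.3, 53.0, 56.0 and 54.6 CPM in control heads. All 4 KDstrong libraries lay above all 4 control libraries, with replicate 1 the lowest of them, while in KDweak only replicate 2 stood well above the controls. The level in KDstrong was 2.62-fold that in control (log2 fold change 1.39, SE 0.219, 95% interval 0.904 to 1.87, edgeR adjusted p = 0.00566). This difference passed the test in 17 of 17 alternative settings, with log2 fold changes of 1.27 to 1.58, and among them without KDstrong replicate 4 and control replicate 3 (1.38, adjusted p = 0.0131). The control libraries were unusually close together for this gene. Their SD on the log2 scale was 0.036, lower than in all but 0.508% of the 10830 features that passed the filter over 12 libraries, whereas it was 0.604 in KDweak and 0.502 in KDstrong.

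In weak knockdown DnaJ-1 did not pass the test (log2 fold change 0.41, interval −0.145 to 0.973, adjusted p = 0.384), and without KDweak replicate 2 the log2 fold change was 0.039. Between the knockdowns, DnaJ-1 had a log2 fold change of 1.00 for KDstrong against KDweak (SE 0.319, interval 0.289 to 1.71, adjusted p = 0.0773). The groups overlapped through KDstrong replicate 1 and KDweak replicate 2. Leaving out KDweak replicate 2 took this difference past the threshold (1.37, adjusted p = 0.00746), as did leaving out KDstrong replicate 1 (1.17, adjusted p = 0.045). It passed in 7 of 17 alternatives, with adjusted p from 0.0049 to 0.194 over all of them.

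Both nucleotide exchange factors were higher in every KDstrong library than in any control library. The gene stv encodes a BAG-domain protein known in fly muscle for clearing damaged filamin together with Hsc70-4. It was at 143.3, 229.2, 266.5 and 204.6 CPM in KDstrong, 135.0, 273.5, 126.7 and 158.1 CPM in KDweak and 132.6, 110.4, 90.16 and 116.0 CPM in control. The gap between the groups was small, since KDstrong replicate 1 was just above control replicate 1, and again KDweak replicate 2 was the highest of its group. In KDstrong stv was 1.88-fold higher than in control (log2 fold change 0.91, SE 0.207, interval 0.456 to 1.37, adjusted p = 0.0467). The call held in 6 of 17 alternatives, with log2 fold changes of 0.787 to 1.058 in all 17. Leaving out any single library but KDstrong replicate 1 ended it, and without KDstrong replicate 4 and control replicate 3 the adjusted p was 0.0518 (log2 fold change 0.86). In KDweak the log2 fold change of stv was 0.64 (interval 0.12 to 1.16, adjusted p = 0.154), and 0.33 without replicate 2. Between KDstrong and KDweak it was 0.30 (interval −0.287 to 0.888, adjusted p = 0.544).

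Hsc70Cb, the fly Hsp110, was at 135.0, 167.6, 176.8 and 181.9 CPM in KDstrong, 121.7, 177.6, 117.5 and 131.9 CPM in KDweak and 108.2, 114.7, 100.8 and 125.5 CPM in control. KDstrong and control did not overlap, and all KDweak libraries but replicate 2 lay below the lowest KDstrong library. The log2 fold change of KDstrong against control was 0.56 (SE 0.151, interval 0.228 to 0.893), which had an unadjusted p of 0.00352 and did not pass after adjustment in edgeR (adjusted p = 0.105). DESeq2 on the same counts did call it (adjusted p = 0.0111), as did the fit with a trend on gene length removed (adjusted p = 0.0422), so that Hsc70Cb passed in 2 of 17 alternatives. KDweak against control gave 0.30 (interval −0.037 to 0.639, adjusted p = 0.296) and KDstrong against KDweak 0.29 (interval −0.061 to 0.631, adjusted p = 0.305).

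Hsp83, the cytosolic Hsp90 of the fly, varied more between the pools of a knockdown genotype than between the genotype means. It was at 273.4, 438.4, 465.2 and 1169 CPM in KDstrong, 346.3, 2236, 251.0 and 664.8 CPM in KDweak and 219.6, 221.1, 465.1 and 286.4 CPM in control. KDweak replicate 2 and KDstrong replicate 4 were the highest libraries, control replicate 3 was the highest control, and all groups overlapped. The highest library of a group was 4.28 times the lowest in KDstrong, 8.91 times in KDweak and 2.12 times in control. The SD of Hsp83 on the log2 scale among KDweak libraries (1.39) was higher than that of 99.5% of the 10830 features, and among KDstrong libraries (0.877) higher than that of 97.2%.

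None of the comparisons of Hsp83 passed the test. The log2 fold change was 0.98 for KDstrong against control (SE 0.415, interval 0.062 to 1.89, adjusted p = 0.387) and 1.56 for KDweak against control (SE 0.591, interval 0.262 to 2.86, adjusted p = 0.163). Without KDstrong replicate 4 the first was 0.42, and without KDweak replicate 2 the second was 0.51. For KDstrong against KDweak it was −0.56 (interval −2.04 to 0.921, adjusted p = 0.67), and it turned to 0.49 without KDweak replicate 2.

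The constitutive Hsp70 genes passed the test in no comparison. Hsc70-4, the abundant Hsc70 that also strips clathrin from coated vesicles, was at 1773, 1727, 1693 and 2758 CPM in KDstrong, 2166, 2480, 1908 and 1981 CPM in KDweak and 1643, 1856, 2698 and 1656 CPM in control. A single library stood above the rest in KDstrong (replicate 4) and in control (replicate 3), and these were the libraries with fewest detected features. The log2 fold change was 0.02 for KDstrong (interval −0.479 to 0.519, adjusted p = 0.989) and 0.13 for KDweak (interval −0.274 to 0.533, adjusted p = 0.725), both against control. Without KDstrong replicate 4 and control replicate 3, KDstrong against control gave 0.037. KDstrong against KDweak gave −0.089 (interval −0.48 to 0.303, adjusted p = 0.814).

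Hsc70-1, a related gene of low abundance here, was at 24.29, 24.79, 22.76 and 20.04 CPM in KDstrong, 31.27, 22.66, 30.86 and 28.66 CPM in KDweak and 22.11, 26.60, 38.47 and 28.76 CPM in control. KDstrong libraries were the closest together, and all groups overlapped. The log2 fold change was −0.33 for KDstrong against control (interval −0.724 to 0.058, adjusted p = 0.548), −0.020 for KDweak against control (interval −0.42 to 0.38, adjusted p = 0.962) and −0.29 for KDstrong against KDweak (interval −0.575 to −0.008, adjusted p = 0.197).

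Hsf, which encodes the transcription factor of the heat shock response, was at 56.91, 56.79, 59.66 and 63.21 CPM in KDstrong, 68.62, 109.8, 65.58 and 75.18 CPM in KDweak and 61.52, 59.66, 66.79 and 58.06 CPM in control. KDstrong and control overlapped within a narrow range, while every KDweak library was above every KDstrong library. KDstrong against control gave a log2 fold change of −0.054 (interval −0.325 to 0.217, adjusted p = 0.94). KDweak against control gave 0.39 (interval 0.014 to 0.758, adjusted p = 0.227), and 0.20 without KDweak replicate 2. KDstrong against KDweak gave −0.42 (interval −0.768 to −0.065, adjusted p = 0.135; the exact permutation test on this gene alone gave p = 0.0286, the smallest that 4 against 4 libraries allow). The knockdown groups did not overlap for this 1 gene of the 7, beside 10.6% of all features wholly higher in KDstrong and 7.65% wholly lower.

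**Figure D2:**
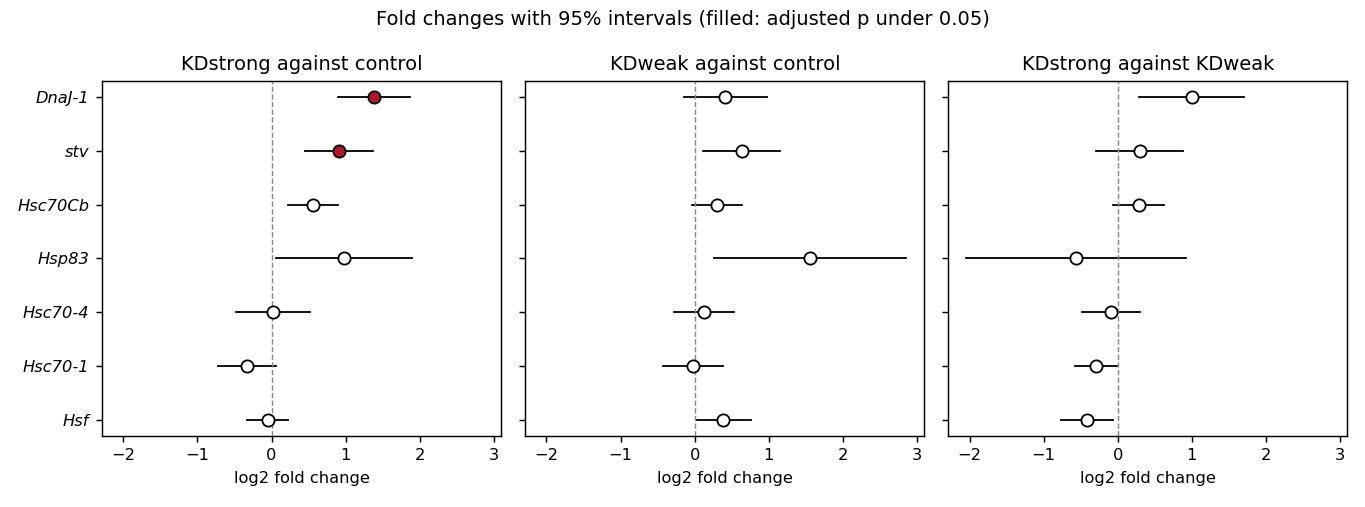
Log2 fold changes of the 7 genes with their 95% intervals in the 3 comparisons, with filled points for an edgeR adjusted p under 0.05. Only DnaJ-1 and stv in KDstrong against control are filled, and the intervals of Hsp83 are the widest in every panel.

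Counted together, 2 of the 7 genes were called higher and 0 lower in KDstrong against control, where 1.78% of the 10522 features tested were called higher and 0.589% lower. Before adjustment (p under 0.05), 4 (DnaJ-1, stv, Hsc70Cb and Hsp83) were higher and 0 lower, against 6.68% and 4.69% of features. KDstrong lay wholly above control for 3 genes and wholly below for 0, against 4.65% and 4.08% of features. The median log2 fold change of the 7 was 0.56, beside −0.015 over all features tested. The 7 genes were chosen with earlier results of these data known. These counts, and those of the other comparisons and lists, therefore describe the genes and are no test of them as a set.

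In KDweak against control edgeR called 0 of 7 in either direction, where 2.56% of 10415 features were called higher and 3.98% lower, and DESeq2 called 0 as well. Before adjustment (p under 0.05), 3 genes (stv, Hsp83 and Hsf) were higher, against 8.73% of features, and 0 were lower, against 12%. All 7 genes overlapped between these groups, whereas 6.57% of features lay wholly higher in KDweak and 9.07% wholly lower. The median of the 7 was 0.386, beside −0.007 over all features.

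In KDstrong against KDweak edgeR called 0 of 7, where 8.18% of 10638 features were called higher and 3.09% lower, and DESeq2 called DnaJ-1 higher. Before adjustment (p under 0.05), DnaJ-1 was higher, against 14.9% of features, and Hsf and Hsc70-1 lower, against 9.13%. KDstrong lay wholly above KDweak for 0 genes, against 10.6% of features, and wholly below for Hsf, against 7.65%. The median was −0.089, beside 0.016 over all features. The 3 comparisons share libraries, so the values of a gene in one are not independent of those in another.

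Within KDweak, most of the chaperone genes were highest in the same pool. KDweak replicate 2 was the highest of the 4 KDweak libraries for 6 of the 7 genes and the lowest for Hsc70-1, where over 10830 features it was the highest for 35.8% and the lowest for 37%. On the log2 scale, its levels lay above the control median by 3.15 for Hsp83, 1.27 for stv, 1.17 for DnaJ-1, 0.86 for Hsf, 0.67 for Hsc70Cb and 0.50 for Hsc70-4. KDweak replicate 3 was the lowest of its group for 6 of 7 genes, and for 21.1% of features. In KDstrong, replicate 1 was the lowest for DnaJ-1, stv, Hsc70Cb and Hsp83, and for 13.3% of features. KDstrong replicate 4 was the highest of its group for 4 of 7, beside 40.2% of features, and control replicate 3 for 5 of 7, beside 42.1%. KDweak replicate 2 was also the library with high muscle markers and the lowest fat body sum in its group. The part of these differences in its chaperone levels was not tested.

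**Figure D3:**
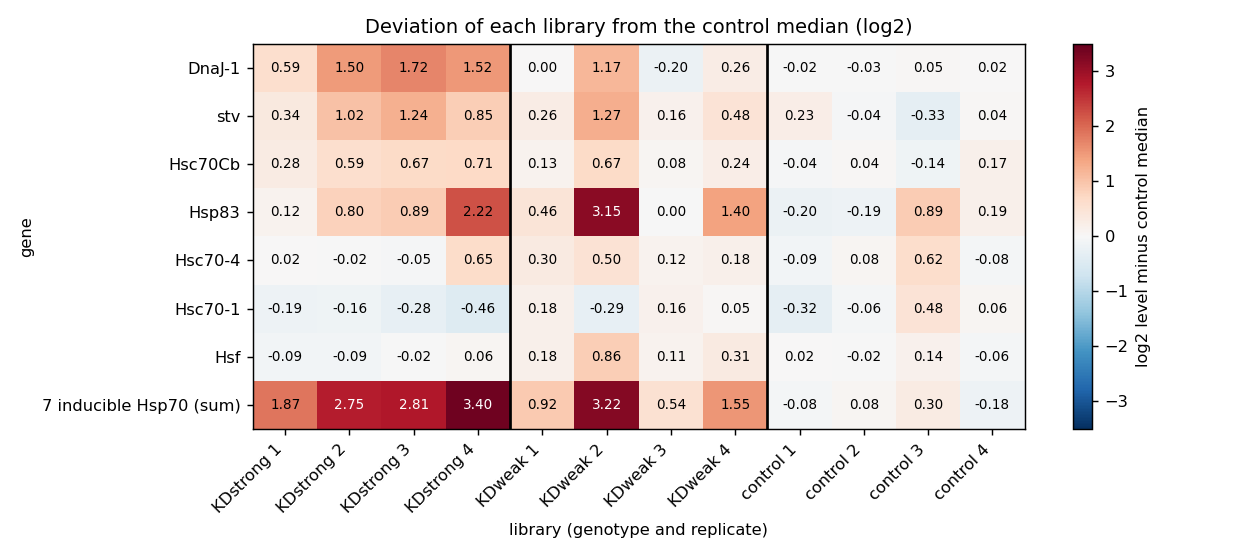
Deviation of each of the 12 libraries from the control median on the log2 scale, for the 7 genes and for the summed CPM of 7 inducible Hsp70 genes. KDweak replicate 2 stands out within its group, with 3.15 for Hsp83, and Hsf in KDstrong lies between −0.09 and 0.06.

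Set against Hsc70-4 in the same library, each per kilobase, DnaJ-1, stv and Hsc70Cb had higher mean shares in KDstrong than in the other genotypes. DnaJ-1 was at 9.28 ± 3.46% of Hsc70-4 in KDstrong, 4.12 ± 1.43% in KDweak and 3.61 ± 0.71% in control (SD, n = 4 each). The corresponding values of stv were 8.22 ± 2.97%, 5.9 ± 1.61% and 4.5 ± 1.5%, and those of Hsc70Cb 6.22 ± 1.29%, 4.64 ± 0.48% and 4.36 ± 1.18%. On this scale KDstrong and control overlapped for stv (lowest KDstrong 5.49%, highest control 5.97%) and for Hsc70Cb (4.78% and 5.49%). Both of these lowest KDstrong values were in replicate 4, where Hsc70-4 itself was high. Hsf was at 2.88 ± 0.505%, 3.46 ± 0.506% and 3.02 ± 0.512%, and Hsc70-1 at 1.22 ± 0.329%, 1.36 ± 0.307% and 1.48 ± 0.176%. Hsp83 was at 25.4 ± 10.2% of Hsc70-4 in KDstrong, 35.1 ± 32.8% in KDweak and 13.7 ± 2.52% in control, and its KDweak libraries ran between 12.1% (replicate 3) and 82.7% (replicate 2). These ratios are given as values with no test.

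The stress-inducible relatives of Hsc70-4 were followed in the same libraries. The 6 Hsp70 copies (Hsp70Aa, Hsp70Ab, Hsp70Ba, Hsp70Bb, Hsp70Bbb and Hsp70Bc) are nearly silent without stress in flies. The summed level of the 6 copies and Hsp68 was 83.25, 152.6, 159.2 and 240.5 CPM in KDstrong, 43.06, 212.3, 33.10 and 66.72 CPM in KDweak and 21.47, 24.02, 27.93 and 20.05 CPM in control. Most of the control sum was Hsp68, at 14.41 to 20.77 CPM in the control libraries. Every library of both knockdowns was above every control library, and KDweak replicate 2 was again the highest of its group. Over all features tested, 1.78% were called higher in KDstrong against control, 2.56% in KDweak against control and 8.18% in KDstrong against KDweak. In KDstrong against control Hsp70Bb, Hsp70Bbb, Hsp70Bc and Hsp68, which were at or above the level of the filter in all 8 libraries, were called higher. Hsp68, which is not one of the near-identical copies, had a log2 fold change of 1.84 (adjusted p = 0.00116). Hsp70Aa, Hsp70Ab and Hsp70Ba were called higher as well, but they reached that level (0.359 CPM) in at most 1 control library each and passed the filter only through KDstrong, where they are high, so their calls are no support. In KDweak against control Hsp70Bb was called higher (3.35, adjusted p = 0.00251), Hsp70Ab was called after passing the filter only through KDweak, Hsp70Aa was not tested, and the other 4 did not pass the test. In KDstrong against KDweak Hsp70Ab was called higher (3.24, adjusted p = 0.0176), and so was Hsp70Aa, which passed the filter only through KDstrong. Without single libraries 0 to 6 of the 7 were called in that comparison, with 6 when KDweak replicate 2 was left out. The reads of the 6 copies cannot be assigned with certainty to one of them.

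Other partners of Hsp70 and Hsp90 are set here against the 1.78% of all features called higher, and the 0.589% called lower, in KDstrong against control. Of 12 further J-domain genes tested, 1 was called higher in KDstrong against control, CG7130 (log2 fold change 2.43, adjusted p = 0.00145), and 0 were lower. It was at 16.57, 15.70, 15.47 and 26.33 CPM in KDstrong, 3.96, 12.88, 3.30 and 7.76 CPM in KDweak and 2.16, 3.29, 5.78 and 2.49 CPM in control, with no overlap between KDstrong and either of the others. Of 14 further co-chaperones of Hsp70 and Hsp90, 1 was called higher, HIP (0.73, adjusted p = 0.0368), which binds Hsp70 in its ADP-bound state in mammals. It lost the call in 6 of the 8 settings that leave out a single library, and its related copy HIP-R, with which it may share reads, was at 0.034. Of 10 small heat shock protein genes, which hold unfolded protein without ATP, 3 were called higher, Hsp26 (2.57, adjusted p = 0.00833), Hsp67Bc (0.90, adjusted p = 0.0136) and Hsp23 (1.04, adjusted p = 0.0184), and the count was 1 to 3 without single libraries.

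Folding machines that work apart from Hsp70 are given for the same comparison, where lists this short hold 0 or 1 calls at the background share. Of 8 subunits of the chaperonin TRiC, which folds actin and tubulin, 0 were called by edgeR (0 at an unadjusted p under 0.05, 0 by DESeq2), with a median log2 fold change of 0.107. Of 6 subunits of prefoldin, which hands clients to TRiC, 0 were called (0 unadjusted, 0 by DESeq2), with a median of −0.039. Of the Hsc70 genes of other compartments, Hsc70-3 (endoplasmic reticulum) and Hsc70-5 (mitochondria) were at 0.72 (unadjusted p = 0.0102, adjusted p = 0.202) and 0.37 (unadjusted p = 0.0468, adjusted p = 0.424) in edgeR's test. Neither was called after adjustment. For Hsc70-5 all KDstrong libraries lay above all control libraries, as they did for 4.65% of all features. The same held for 1 of the TRiC genes, 0 of the prefoldin genes, 2 of the J-domain genes and 3 of the co-chaperones.

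**Figure D4:**
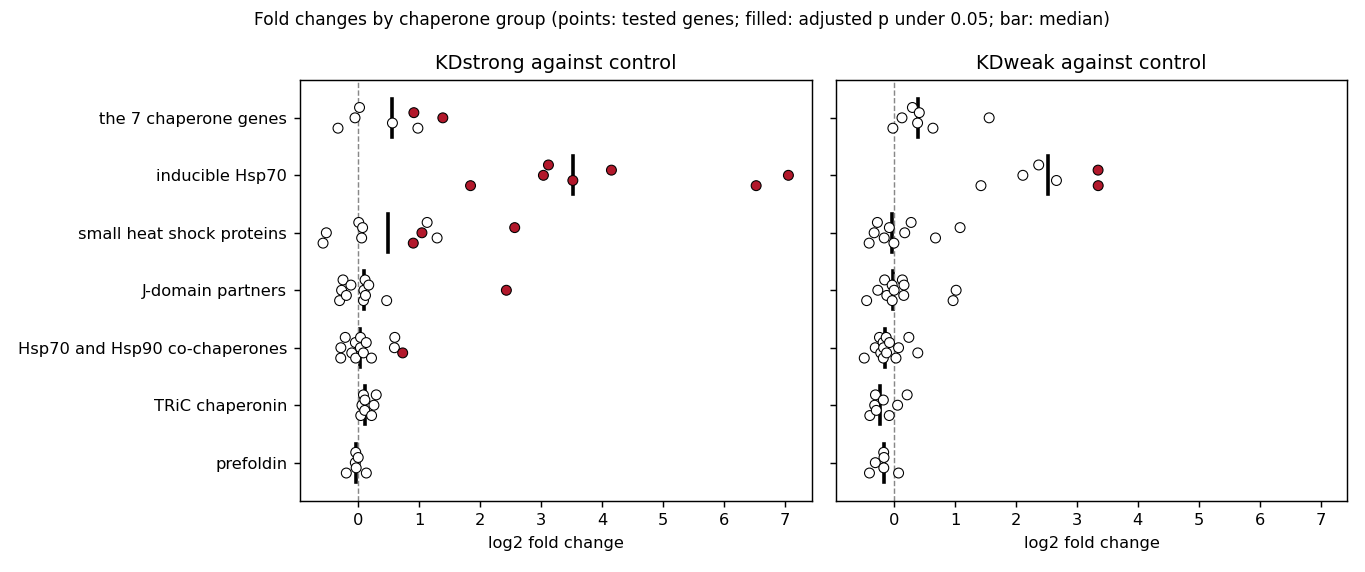
Log2 fold changes of the tested genes of each chaperone group in KDstrong against control and in KDweak against control, with filled points for an edgeR adjusted p under 0.05 and a bar for the group's median. In KDstrong 2 of the 7 chaperone genes, all 7 inducible Hsp70 genes (3 of which passed the filter only through KDstrong), 3 of 10 small heat shock protein genes and 1 gene each of the J-domain and co-chaperone groups are filled.

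In KDweak against control edgeR called 0 genes of the J-domain (12 tested), co-chaperone (14), TRiC (8), prefoldin (6) and small heat shock protein (10) groups. Over all features 2.56% were called higher and 3.98% lower, and lists this short hold few or no calls at such shares. With no adjustment (p under 0.05) the J-domain group had 2 higher and 1 lower, the co-chaperones 1 and 1, TRiC 0 and 1, prefoldin 0 and 1, and the small heat shock proteins 1 and 0. The unadjusted shares over all features were 8.73% higher and 12% lower. DESeq2 called 1 J-domain gene and 1 small heat shock protein gene higher and 0 in the other 3 groups. Hsc70-2, an Hsc70 gene close to the detection limit, was at 0.107 to 0.614 CPM in KDstrong, 1.84 to 3.21 CPM in KDweak and 0.189 to 0.201 CPM in control. It passed the filter only through KDweak, the genotype where it is high, so its fold changes are not given. In KDstrong against KDweak the calls were CG7130 (1.44, adjusted p = 0.0389), nudC (0.79, adjusted p = 0.00186), HIP (0.51, adjusted p = 0.0408), the TRiC genes CCT2 (0.53, adjusted p = 0.0181) and CCT7 (0.48, adjusted p = 0.0478), and Hsp67Bc (1.20, adjusted p = 6.85e-04) and Hsp23 (1.23, adjusted p = 0.0149) among the small heat shock proteins, all higher in KDstrong, where 8.18% of all features were called higher. By group this was 1 of 12 J-domain genes, 2 of 14 co-chaperones, 2 of 8 TRiC genes and 2 of 10 small heat shock protein genes. In lists this short the J-domain and co-chaperone counts lie near that background, and the other counts rest on 2 genes each. Without single libraries these counts were 0 to 1 for the J-domain group, 1 to 2 for the co-chaperones, 0 to 2 for TRiC and 1 to 3 for the small heat shock proteins. Against control, CCT2 was at 0.22 in KDstrong and −0.29 in KDweak, and CCT7 at 0.06 and −0.40. None of these was called, so the TRiC calls do not show a rise above control.

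The features with the most similar profiles to DnaJ-1 and stv were found by the root-mean-square difference of log2 CPM over the 12 libraries, each profile centred on its control mean. Among 10829 other features the nearest to DnaJ-1 were CycB (0.323) and mtsh (0.324), both at low level, and then stv (0.339). CycB, a mitotic cyclin, ran between 0.877 and 2.25 CPM in KDstrong, 0.343 and 1.47 in KDweak and 0.433 and 0.723 in control. The nearest to stv were Tis11 (0.219), which encodes a zinc finger protein that speeds decay of AU-rich mRNAs, CG5953 (0.236) and CG18596 (0.261). Among the 7 genes themselves the closest pairs were Hsc70-4 with Hsf (0.25), stv with Hsc70Cb (0.323) and DnaJ-1 with stv (0.339), and the farthest Hsp83 with Hsc70-1 (1.32). By the same measure Hsc70-4 and Hsf lay only 0.266 and 0.269 from their own control means. Their distance is about as large as that, so it does not show that the 2 genes vary alike.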

How the data were processed

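RNA of the head pools was made into paired-end libraries with a kit that keeps no strand. Per the labels, the authors used fastp, HISAT2 and featureCounts, and DESeq2 for comparisons, whose versions and settings the sources used here do not give. The authors deposited 3 tables, 1 per comparison, with raw counts per feature, FPKM, normalized counts (a signal scaled within a table), gene length, and their own log2 fold changes and p-values. Only counts and gene length were used. The 24 columns of normalized counts and 9 columns of fold changes and p-values were left out. Counts of a library were identical between tables (0 differences), and 300 of the 17589 features missing from a table were set to 0 in the 12-library levels.

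CPM used TMM factors (edgeR 4.0.16, limma 3.58.1, R 4.3.3), with a prior count of 2 for log2 values. Each comparison was fitted on its 8 libraries by edgeR's quasi-likelihood test after filtering (minimum count 10, minimum total 15), with Benjamini-Hochberg adjusted p under 0.05 called. Intervals are 95% intervals of the log2 fold change. Alternatives were DESeq2 1.42.0, other scalings, no filter, all 12 libraries, a replicate block, a gene length trend, protein-coding genes only, and libraries left out. The pairs of libraries left out together were chosen after seeing the data. The method was tested on simulated data. The members and lists were chosen with earlier results of these data known. Named genes were the 7 members, ND-75, the inducible Hsp70 genes with up to 2 by value, up to 4 called genes per list, direction and comparison, and the 3 nearest profiles of each called member. Other genes named were chosen after their values were seen. No sequence is printed.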

Additional observations from a re-analysis of the deposited data

Results flagged for a closer look

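Hsc70-4 in KDstrong replicate 4, at 2758 CPM, stood far from the other 3 KDstrong libraries, which lay between 1693 and 1773 CPM. Its gap to the nearest library was the larger part of the group's range, beyond Dixon's 95% critical value of 0.829 for 4 samples. It was the only such library among 21 groups of 4 (7 genes in 3 genotypes), and chance gives about 1 in 20. The same library was the highest of its group for 40.2% of 10830 features.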

How the results depend on the processing

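In KDstrong against control, the count of chaperone genes called higher was 1 (DnaJ-1) in place of 2 with all 12 libraries in one fit, with a replicate block, with protein-coding genes only, and without KDstrong replicate 4 and control replicate 3, and 1 to 2 without single libraries. In KDstrong against KDweak it was 1 (DnaJ-1) in place of 0 with DESeq2, without the filter, with all 12 libraries and with a replicate block, 0 to 1 without single libraries, and 2 higher and 1 lower without KDstrong replicate 4 and KDweak replicate 2 (DnaJ-1 1.329, Hsc70Cb 0.384, Hsc70-1 −0.324). In KDweak against control the counts stayed at 0 in all alternatives. Directions turned for 3 values. Hsc70-1 in KDweak against control was −0.132 to 0.136 without single libraries and 0.226 without KDweak replicate 2 and control replicate 3. Hsc70-4 in KDstrong against control was −0.014 with upper quartile scaling and −0.162 to 0.222 without single libraries. Hsp83 in KDstrong against KDweak, −0.56 with all libraries, was −1.146 to 0.491 without single libraries. The causes were not tested. Same-numbered libraries correlated between −0.446 and 0.136. These values gave no sign of pairing by replicate number but cannot exclude it, and the sources do not say whether pools were paired. With the replicate block stv in KDstrong against control had adjusted p = 0.268 and DnaJ-1 in KDstrong against KDweak 0.0325 (edgeR).

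Over all features, KDweak against control had 267 calls higher and 414 lower, against 498 and 622 with DESeq2, 525 higher with the length trend removed, and 139 to 363 and 201 to 550 without single libraries. KDstrong against control had 187 and 62, against 371 and 133 with DESeq2, 281 and 108 with the length trend removed, 114 and 28 with the block, 100 lower with all 12 libraries, and 36 to 79 lower without single libraries. KDstrong against KDweak had 870 and 329, against 599 lower with DESeq2, 601 lower with the length trend removed and 189 to 651 lower without single libraries. Without the pairs of libraries these were 628 and 906, 407 and 125, and 1394 and 932. With 4 pools a genotype, a change the size of the spread of Hsp83 could not be told from that spread, and intervals are wide for it. Counts cover whole genes, so isoforms were not compared.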

Other observations

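The noncoding RNA lncRNA:Hsromega, which flies transcribe strongly under heat shock, was looked at after the values were seen. It was at 206.3, 301.7, 343.8 and 325.3 CPM in KDstrong, 121.4, 95.2, 122.3 and 130.7 CPM in KDweak and 106.0, 120.7, 130.1 and 132.1 CPM in control. All KDstrong libraries were above all others, and KDweak and control overlapped. By edgeR's quasi-likelihood test the log2 fold change was 1.27 for KDstrong against control (adjusted p = 0.00325) and 1.34 for KDstrong against KDweak (adjusted p = 9.43e-04), and −0.045 for KDweak against control (adjusted p = 0.879). KDweak replicate 2, the highest of its group for 6 of the 7 chaperone genes, was the lowest of its group for this RNA.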
